A study of Homo sapiens with 12 samples.

Results

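Single haploid human cells that had lost SCC4 were compared by how many RNA molecules were counted in them. Within each batch the 153 SCC4 knockout (KO) cells were ranked by their total unique molecular identifiers (UMIs, tags that mark single RNA molecules), and the 1 in 3 cells at the top of the ranking were set against the 1 in 3 at the bottom. The comparison used 100 of the 153 cells, 50 of high total (the high-UMI group, 25 per batch) and 50 of low total (the low-UMI group, 25 per batch), with 53 cells between them (the mid-UMI group). The cells were chosen by their measured totals, so the difference in totals itself is not a result. What could be described is how the share of each gene differed between cells of high and low total, after every cell was thinned to the same 44979 UMIs.

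The series tested LAST-seq, a single-cell RNA sequencing method in which a T7 promoter is attached to the 3′ end of each polyadenylated RNA and the RNA itself is amplified by T7 transcription. The tables of the whole series hold 403 wells. eHAP1 is a human line with a single copy of each chromosome, derived from a chronic myeloid leukaemia line but grown as adherent cells. KO cells were made by electroporating Cas9 with 1 guide RNA against SCC4, after which single cells were expanded. How many KO clones went into the plates is not given in the sources used here. WT cells are eHAP1 cells without this edit. Both genotypes were grown with 10-Deacetylbaccatin-III to keep them haploid, stained with Hoechst33342, and gated as live haploid cells in G1 phase. The gates also held cell size and DNA content to narrow ranges, so differences in size were limited by the sort. Each genotype is 1 deposited sample made of 2 batches, so no p-value is given. Values are shown for each batch, or as the mean ± SD over the 2 batches, and whether the batches are separate cultures is not given in the sources used here.

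SCC4, encoded by MAU2, works with NIPBL as the loader that places the ring-shaped cohesin complex on chromatin. Cohesin then extrudes DNA into loops and, together with CTCF, forms topologically associating domains. Total RNA per cell is known to scale with cell size, while a count of UMIs depends both on the RNA a cell holds and on how much of it is captured.

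The guide site is shown because it defines the KO cells, and the 3 capital letters mark the PAM that Cas9 needs beside its target. The target lies at chr19:19338850-19338869 on the plus strand (GRCh38), in coding exon 5 of the MANE transcript of MAU2 (exon at chr19:19338845-19338939).
MAU2 target: gcacacgcttgagaaggaccTGG
MAU2 itself averaged 0.442 thinned UMIs per cell in KO batch 1 (95% exact Poisson interval 0.306 to 0.617) and 0.632 in KO batch 2 (0.466 to 0.837). In WT it averaged 1.95 (1.64 to 2.29) and 2.26 (1.93 to 2.63). The intervals of the genotypes did not overlap in either batch. Intervals here and below cover counting error only. MAU2 was below the mean of 1 thinned UMI per cell required of a tested gene.

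Totals ran from 44979 to 174807 UMIs (median 81789) in the 77 cells of KO batch 1, and from 62926 to 320432 (median 152433) in the 76 cells of batch 2. In batch 1 the low-UMI group held 25 cells of 44979 to 75432 UMIs and the high-UMI group 25 cells of 90320 to 174807. In batch 2 the low-UMI group held 25 cells of 62926 to 141414 UMIs and the high-UMI group 25 cells of 162732 to 320432. The mean total of the high-UMI group was 1.64 times that of the low-UMI group in batch 1 and 1.55 times in batch 2. No cell exceeded 3 times the median of its batch. Of the 12 blood-cell markers listed for the lineage of the parent line, PTPRC, CD34, GATA1 and MPO among them, none reached the mean required for a test, and together they held 0.00151% to 0.00302% of UMIs in each outer group.

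Totals tended to be alike in unrelated cells that carried the same well code, more so between the KO batches than between the WT batches. Every well carries a 6-letter code in its primer, and the same codes were used again in each batch of each genotype. 78 codes were seen, 67 of them in all 4 pools, and cells with one code in different pools are unrelated cells. Over the 75 codes present in both KO batches, the totals of the batches had a Spearman correlation of 0.65. Of the 24 shared codes in the low-UMI group of batch 1, 18 were again in the low-UMI group of batch 2 and 0 in the high-UMI group. Of the 24 shared codes in the high-UMI group of batch 1, 13 were again in the high-UMI group and 0 in the low-UMI group. The order of the codes was also shared with WT, at Spearman 0.519 (72 codes) and 0.568 (74 codes) between KO batch 1 and the WT batches, and at 0.367 (71 codes) and 0.512 (73 codes) for KO batch 2. The 2 WT batches had a correlation of 0.263 (70 codes) with each other, and the Pearson correlation of their log totals was −0.0691.

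A code near each end of the range was far from the median in all 4 pools. A cell with code caggaa held 2.14, 2.1, 2.34 and 2.07 times the median total of its pool in KO batch 1, KO batch 2, WT batch 1 and WT batch 2. Code gtatcc held 0.55, 0.678, 0.634 and 0.563 times the median in the same order. These codes are examples, and others differed between the WT batches. In WT batches 1 and 2, agactc held 2.39 and 0.125 times the median and cagtct 0.926 and 6.44 times. All 78 codes have 3 letters that are G or C, so the GC content of the code did not vary. Codes whose KO cell was in the low-UMI group of batch 1 had a median WT total of 0.866 times the WT batch median, against 1.04 for the mid-UMI and 1.21 for the high-UMI group. For batch 2 the values were 0.87, 0.99 and 1.15, and the ranges of the groups overlapped in both. The groups are therefore called by their total UMIs and not by RNA content, since a code and the place of a well on the plate cannot be told apart from cell content with 1 cell per code and pool.

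**Figure D1:**
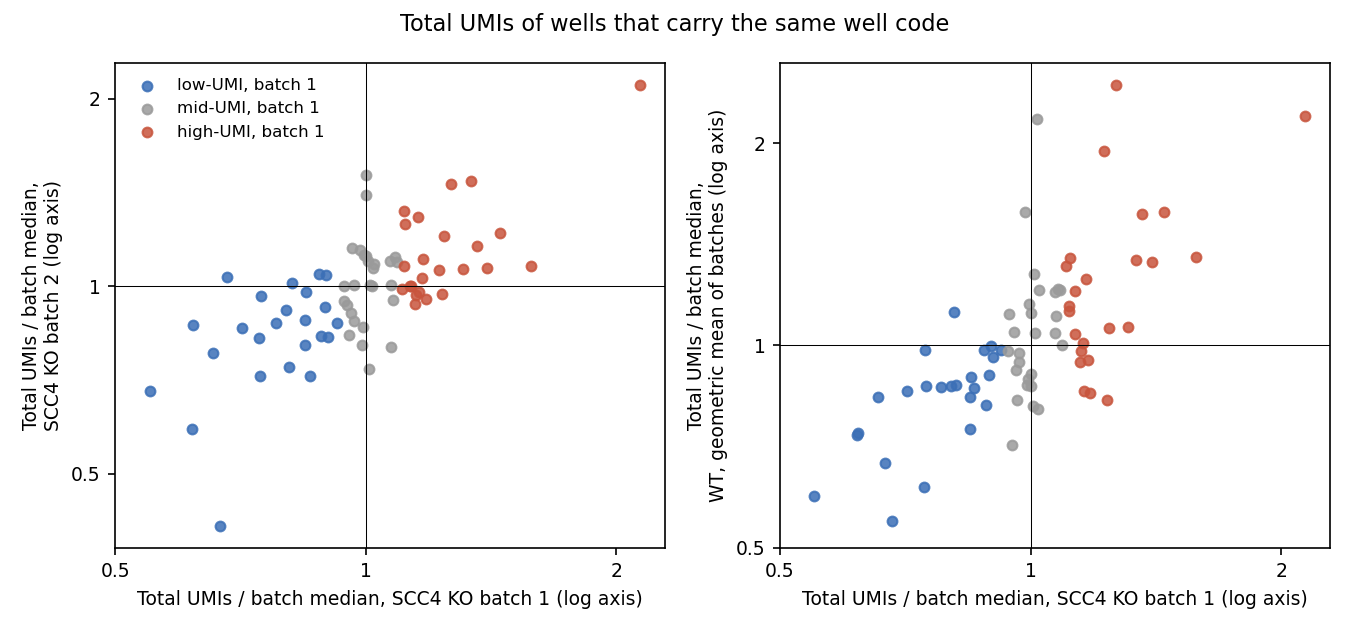
Total UMIs of wells that carry the same well code, each divided by its batch median, on log axes. The x axis gives SCC4 KO batch 1, the y axis SCC4 KO batch 2 (left) or the geometric mean of the WT batches (right), and colours give the group in KO batch 1. Low-UMI codes (blue) mostly lie below 1 and high-UMI codes (red) mostly above 1 in both panels, with a Spearman correlation of 0.65 between the KO batches.

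Because the cells were chosen by their total, most genes had to have more UMIs in the high-UMI group before thinning, and the values are given as a description. Before thinning, 5480 of 5531 genes (99.08%) had more UMIs per cell in the high-UMI group than in the low-UMI group in both batches. The median gene's ratio was 1.62 in batch 1 and 1.53 in batch 2, close to the ratios of the mean totals. After thinning, the number of genes detected per cell was still slightly different, with medians of 6984, 7095 and 7178 genes in the low-, mid- and high-UMI groups of batch 1, and of 7253, 7362 and 7341 in batch 2. Without thinning the medians were 8068, 8782 and 9327, and 10304, 10938 and 11339.

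Few genes differed in share by the same direction in both batches. A gene was called higher or lower when its thinned UMIs per cell differed by at least 1.5-fold between the high-UMI and the low-UMI group in both batches, among the 5531 genes that averaged 1 or more thinned UMIs per cell. By this rule 14 genes (0.253%) were higher in the high-UMI group and 11 genes (0.199%) were lower. When the UMIs of the batches were summed before a single fold was taken, 46 genes were higher and 45 lower. A further 22 genes passed 1.5-fold in both batches but in opposite directions, close to the 25 that agreed. In batch 1 alone 224 genes were past 1.5-fold higher and 177 lower, and in batch 2 alone 143 and 156. Across the 5531 genes the log2 folds of the batches had a Pearson correlation of 0.0287, given as a description since genes of one pool share cells and depth. Within 1.5-fold in both batches were 4878 genes (88.19%). Of the 81 genes with a mean of 50 or more thinned UMIs, 0 were past 1.5-fold in either batch, whereas 16 of the 25 calls had means between 1 and 2 UMIs.

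The threshold cut through a continuous range. Just inside it lay TBC1D25 (log2 fold −1.06 and −0.60 in batches 1 and 2), RPS3AP44 (0.60 and 0.70) and WDFY1 (−0.92 and −0.60), and just outside lay OTUD4 (−0.59 and −0.58), HEBP2 (0.58 and 0.65) and SSTR2 (−0.57 and −0.69). The random thinning also decided many of the calls. Over 10 draws, 157 genes were called at least once and 122 of them in 1 draw alone. Called in every draw were BCYRN1, C5orf63, DNAJC28 and ELAVL3 as higher and VAT1L as lower.

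**Figure D2:**
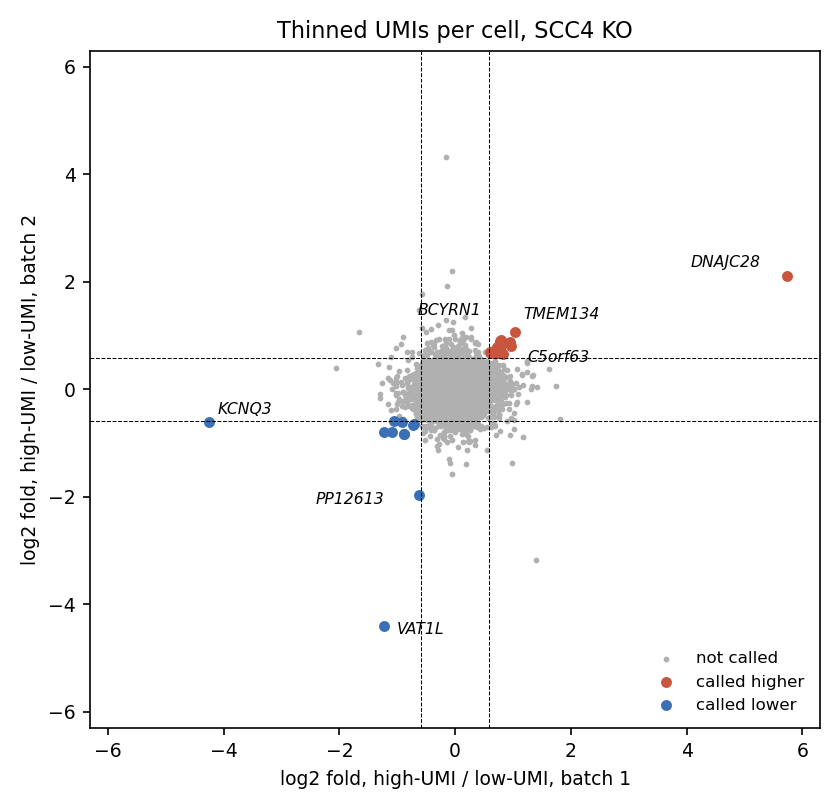
Log2 fold of thinned UMIs per cell between the high-UMI and low-UMI groups of SCC4 KO cells, batch 1 on the x axis and batch 2 on the y axis, 1 point per gene of 5531. Dashed lines mark 1.5-fold. The cloud is round (Pearson correlation 0.0287), with 14 genes called higher (red) and 11 called lower (blue).

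BCYRN1 and C5orf63 were the called genes with the most UMIs. BCYRN1 is a short non-coding RNA of primates, made by RNA polymerase III from an Alu-derived sequence with an A-rich middle, and known as a repressor of translation in neurons. In KO batch 1 the lowest, median and highest cell held 10, 21 and 112 thinned UMIs of BCYRN1 in the low-UMI group, 7, 19 and 45 in the mid-UMI group, and 5, 27 and 246 in the high-UMI group. In KO batch 2 they held 5, 17 and 44 in the low-UMI group, 6, 23 and 85 in the mid-UMI group, and 5, 27 and 123 in the high-UMI group. The ranges of the groups overlapped almost wholly, and the high-UMI groups differed by having more cells of high level. The mean rose from 27.3 (95% exact Poisson interval 25.3 to 29.4) to 47.1 (44.4 to 49.9) in batch 1 and from 19.2 (17.5 to 21) to 36.3 (34.0 to 38.7) in batch 2, a log2 fold of 0.85 ± 0.09 (SD, n = 2 batches). In batch 1 the mid-UMI group had the lowest mean, 20.3, and in batch 2 it was near the top, at 34.2. Without the highest cell of each group, the log2 folds were 0.71 and 0.85. The call was lost under both rankings by well code, which were chosen after the values were seen. Ranked by the total divided by that of the same code in other pools, the BCYRN1 log2 folds were 0.997 and −0.03, and ranked by the total of the code in other pools alone they were 0.37 and 0.65. In WT, whose cells the ranking of KO cells did not use, the mean was 11.96, 16.4 and 20.5 in the low-, mid- and high-UMI groups of batch 1, and 15.7, 15.8 and 19.96 in batch 2 (log2 folds 0.77 and 0.35).

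C5orf63, which encodes a glutaredoxin-like protein, had the same pattern. Its lowest, median and highest cell were 15, 29 and 180 thinned UMIs in the low-UMI group of KO batch 1, against 16, 35 and 697 in the high-UMI group. In KO batch 2 they were 8, 24 and 55 against 8, 40 and 177. The mean rose from 37.0 to 71.9 in batch 1 and from 27.2 to 47.7 in batch 2 (log2 fold 0.88 ± 0.11 (SD, n = 2 batches)). The cell of 697 UMIs weighed on batch 1, where the fold without the highest cell of each group was 0.56 on the log2 scale, under the threshold. With the total divided by that of the same code in other pools, the C5orf63 log2 folds were 1.21 and −0.02 and the call was lost. The WT log2 folds were 0.78 and 0.35.

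**Figure D3:**
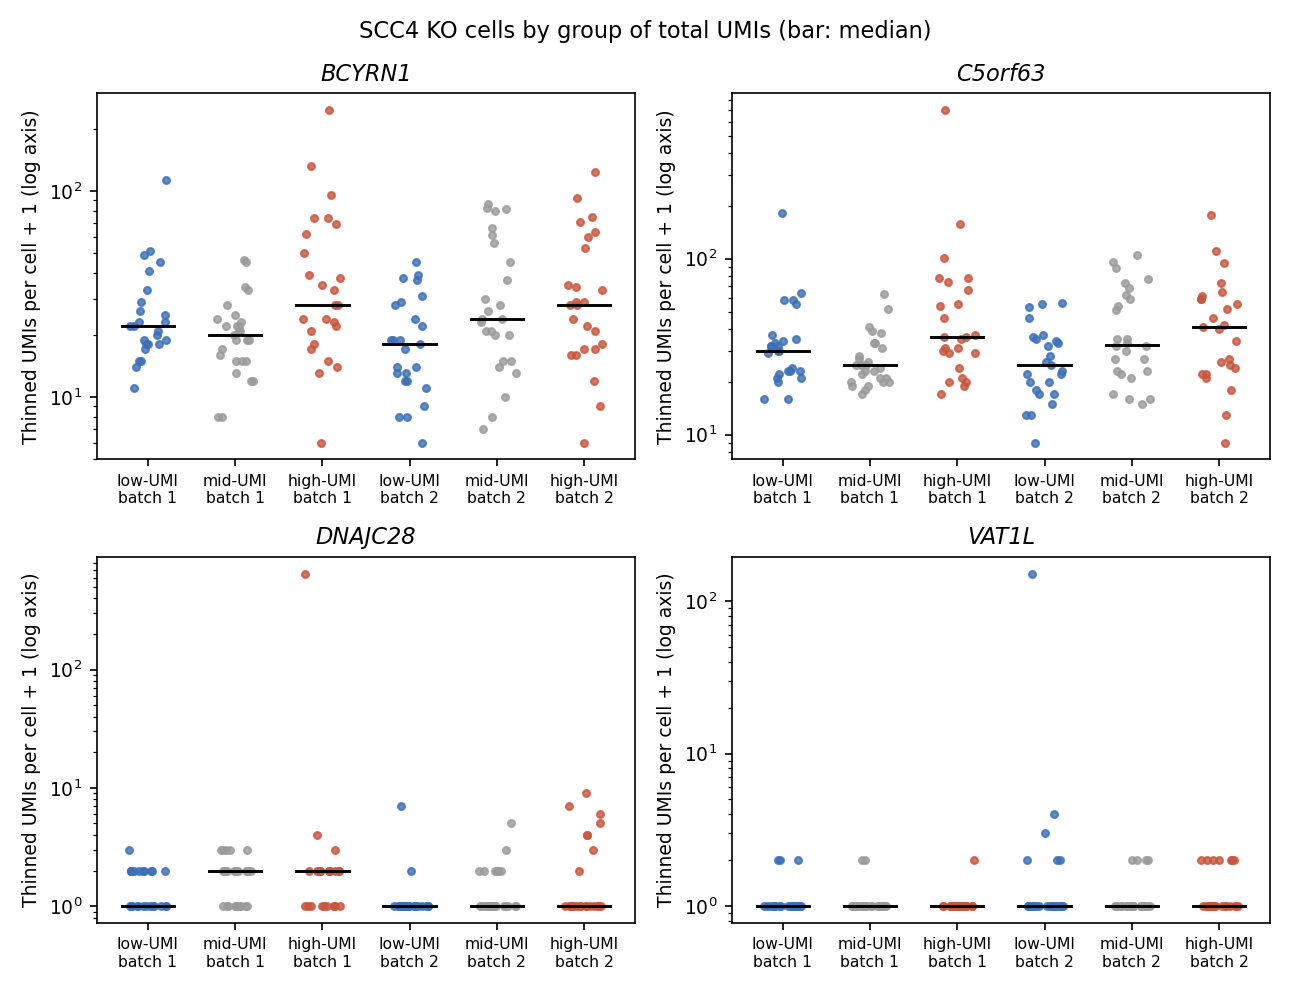
Thinned UMIs per cell plus 1 (log axis) of BCYRN1, C5orf63, DNAJC28 and VAT1L in each SCC4 KO cell, by batch and group of total UMIs, with bars at the median. BCYRN1 and C5orf63 spread over many cells of each group, whereas single cells of 646 UMIs (DNAJC28) and 150 UMIs (VAT1L) stand far above the rest.

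The genes that varied most like BCYRN1 from cell to cell were found by Spearman correlation of thinned UMIs, keeping those with at least 0.45 in both KO batches (77 and 76 cells that share 1 library each). This selection was made after the values were seen. It gave 7 genes. They were C5orf63 (0.74 and 0.83), the SUMO protease gene SENP7 (0.67 and 0.71), the zinc-finger gene ZNF3 (0.55 and 0.55), ELAVL3 (0.52 and 0.58), which encodes a neuronal RNA-binding protein, the ciliary and planar-polarity gene WDPCP (0.51 and 0.51), the long non-coding RNA SAMMSON (0.57 and 0.47) and the Golgi membrane protein gene YIPF4 (0.50 and 0.46). In WT the correlations were 0.79 and 0.84 for C5orf63 and 0.80 and 0.85 for SENP7, whereas SAMMSON, at 0.28 and 0.30, was below 0.45 in both WT batches and WDPCP, at 0.53 and 0.26, in batch 2. ZNF3, ELAVL3 and YIPF4 had WT correlations of 0.52 to 0.74.

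Since these genes were picked for varying with BCYRN1 in the same KO cells, their KO directions follow in part from the choice and are a description. All 8, BCYRN1 included, had a positive log2 fold in both KO batches, as 22.5% of all tested genes had, and in both WT batches. Of these SENP7, ZNF3, SAMMSON and YIPF4 did not reach 1.5-fold in KO batch 2. SENP7 had log2 folds of 0.85 and 0.37 in KO and 1.02 and 0.33 in WT. Summed, the set ranged from 45 to 426 thinned UMIs per cell (median 72) in the low-UMI group of KO batch 1 and from 41 to 1277 (median 95) in the high-UMI group. In KO batch 2 it ranged from 30 to 151 (median 67) in the low-UMI group and from 20 to 451 (median 85) in the high-UMI group. In WT the medians were 77 and 137 in batch 1 and 83 and 111 in batch 2. Unlike the totals, the level of the set was not shared between cells of one code, with Spearman correlations of −0.183 to 0.0634 over the 6 pairs of pools. A single cell of batch 1 with 101675 total UMIs held the most of BCYRN1, C5orf63, ELAVL3, PPP6R3 and MAP3K20 among KO cells, and a single cell of batch 2 with 162732 held the most of TMEM134 and WDPCP.

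BCYRN1 is derived from the Alu repeat, copies of which lie in many transcripts, and whether reads were shared between BCYRN1 and the genes that varied with it was not tested.

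Some of the remaining genes called higher also varied with BCYRN1 across KO cells. The Spearman correlations in batches 1 and 2 were 0.393 and 0.668 for TMEM134 and 0.436 and 0.69 for PPP6R3. They were 0.523 and 0.339 for MAP3K20 and 0.497 and 0.307 for ENSG00000284607. Each missed the cut of 0.45 in a single batch, so these rises may not be separate from that of BCYRN1. TMEM134 is a transmembrane protein gene. In batch 1 the lowest, median and highest cell held 0, 2 and 5 thinned UMIs in the low-UMI group and 0, 3 and 16 in the high-UMI group. In batch 2 they held 0, 2 and 7 against 0, 4 and 17. The cells overlapped, and the mean rose from 2.2 to 4.52 and from 2.2 to 4.64 UMIs per cell (log2 fold 1.05 ± 0.03 (SD, n = 2 batches)). TMEM134 overlaps CABP4 on the opposite strand.

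PPP6R3, a regulatory subunit of protein phosphatase 6, rose from a mean of 4.36 (median 3, highest cell 21) to 7.56 thinned UMIs per cell (median 7, highest 22) in batch 1. In batch 2 it rose from 4.04 (median 4, highest 9) to 7.04 (median 7, highest 19). PPP6R3 was the called gene with the highest Spearman correlation to total UMIs across the cells of batch 1, at 0.431, with 0.272 in batch 2. Its WT log2 folds were 0.78 and 0.45. MAP3K20, a kinase that responds to stalled ribosomes, rose from 2.96 to 4.92 UMIs per cell in batch 1 and from 2.32 to 4.04 in batch 2 (WT log2 folds 0.40 and −0.03).

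ELAVL3 rose from a mean of 2.96 to 5.76 thinned UMIs per cell in batch 1 and from 2.48 to 4.56 in batch 2. In batch 2 the median cell was at 2 UMIs in both outer groups, with highest cells of 6 and 17. ELAVL3 overlaps the gene model ENSG00000267477 on the same strand. WDPCP rose from 2 to 3.32 and from 1.68 to 2.68 UMIs per cell, but without the highest cell of each group its batch 2 log2 fold was 0.48, under the threshold.

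The other genes called higher were near the limit of 1 to 2 UMIs per cell. They were the processed pseudogenes ENSG00000281087 (log2 folds 0.78 and 0.91) and RPS3AP44, the non-coding RNA ENSG00000284607 (0.78 and 0.74), TCAIM, which encodes a mitochondrial protein (0.82 and 0.66), DEF8 (0.69 and 0.73) and CXADR, the receptor of coxsackie and adenoviruses at cell junctions (0.66 and 0.67). ENSG00000284607 was called in 7 of the 10 thinning draws, whereas each of the others was called in 1 draw alone. Without thinning, the log2 folds were 0.76 and 0.82 for ENSG00000284607, 0.49 and −0.11 for CXADR, and 0.68 and −0.02 for TCAIM. They were 0.38 and 0.34 for DEF8, 0.44 and 0.45 for RPS3AP44, and 0.23 and 0.11 for ENSG00000281087. The reads of the pseudogenes may be split with copies of their parent genes. For CXADR the low-UMI group of batch 1 held 22 UMIs in all (95% exact Poisson interval 13.8 to 33.3) and the high-UMI group 35 (24.4 to 48.7), so the intervals overlapped.

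DNAJC28, a J-domain chaperone gene, had the largest fold and owed it in batch 1 to 1 cell. In the low-UMI group of batch 1 no cell exceeded 2 thinned UMIs, and in the high-UMI group the highest cell held 646 (1310 before thinning) and the next 3. That cell held 90.5% of the gene's UMIs in the outer groups of both batches. In batch 2 the low-UMI group reached 6 UMIs and the high-UMI group 8, with 2 of 25 cells positive in the low-UMI group. The log2 folds were 5.73 and 2.12, and 0.74 and 4.03 without the highest cell of each group.

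The genes called lower in the high-UMI group included 3 of the same kind. VAT1L had 1 cell of 150 thinned UMIs (456 before thinning) in the low-UMI group of batch 2, 88.8% of its UMIs in both outer groups, and no other cell above 3. Its log2 folds were −1.22 and −4.40, and −0.39 in batch 2 without the highest cell of each group. The batch 1 fold rested on 3 UMIs in the whole low-UMI group against 1 in the high-UMI group. The Poisson intervals of the means overlapped (0.0248 to 0.351 and 0.00101 to 0.223 UMIs per cell). KCNQ3, a voltage-gated potassium channel subunit, had 9 UMIs in 1 low-UMI cell of batch 1 and 0 in every other cell of the outer groups of that batch. In batch 2 it was at 4.52 UMIs per cell in the low-UMI group and 2.96 in the high-UMI group. The non-coding RNA PP12613, which overlaps SMIM43 on the opposite strand, had single cells of 114 UMIs in the low-UMI group and 73 in the high-UMI group of batch 1. Without the cell of 114 UMIs the difference in batch 1 was 2.83 UMIs per cell in the opposite direction.

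The other 8 lower genes held between 1 and 2 thinned UMIs per cell. The lowest, median and highest cell of NADK2, the mitochondrial NAD kinase, held 0, 2 and 9 UMIs in the low-UMI group and 0, 1 and 5 in the high-UMI group of batch 1, and 0, 2 and 6 against 0, 1 and 4 in batch 2. Its mean fell from 2.2 to 1.32 UMIs per cell in batch 1 and from 2.24 to 1.4 in batch 2. FAM114A2 fell from 1.72 to 0.72 UMIs per cell in batch 1 and from 1.2 to 0.68 in batch 2. ITGA4, the integrin alpha 4 chain that binds VCAM1, fell from 1.64 to 0.88 and from 1.36 to 0.76. The cells of the groups overlapped for each of these genes. NADK2 and FAM114A2 were each called in 1 of the 10 thinning draws and ITGA4 in 2. Without thinning, the log2 folds were −0.64 and −0.23 for NADK2, −1.16 and −0.26 for FAM114A2, and −0.55 and −0.52 for ITGA4.

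IFI27L1 of the interferon-inducible IFI27 family (log2 folds −1.10 and −0.80), PTGFRN, a membrane partner of tetraspanins (−0.88 and −0.84), TBC1D25, a Rab GTPase-activating protein (−1.06 and −0.60), WDFY1, an endosomal adaptor (−0.92 and −0.60), and DCAF6, a substrate receptor of CUL4 ubiquitin ligase (−0.70 and −0.65), completed the list. IFI27L1 was called in 4 of the 10 thinning draws, and PTGFRN, TBC1D25, WDFY1 and DCAF6 each in 1 draw alone. Without the highest cell of each group, 18 of the 25 calls were still past 1.5-fold in both batches, 11 higher and 7 lower.

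The cells outside the contrast gave a further description of the 25 genes. In the mid-UMI group, 14 of the 25 had a mean between those of the outer groups in both batches, and 19 lay on the high-UMI side of the low-UMI group in both. The genes were chosen by the same outer means, so these counts follow in part from the choice. No such count over all tested genes is given. In WT, 16 of the 25 genes had enough UMIs to be tested. By the same rule 8 of 5447 genes (0.147%) were higher and 6 (0.11%) lower in the WT high-UMI group, and 0 of the 16 were among them. Of the 16, 10 had the KO direction in both WT batches and 2 (ITGA4 and NADK2) the opposite one in both. The share of all WT genes with one direction in both batches is not given here. Among the 10 were BCYRN1, C5orf63, ELAVL3, WDPCP, PPP6R3 and TMEM134. The last 5 varied with BCYRN1 across WT cells (Spearman correlations of 0.261 to 0.839), so these genes may not count separately. The median WT log2 fold was 0.39 for the 11 genes called higher in KO and 0.00 for the 5 called lower, against 0.00 for all genes tested in WT.

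Mitochondrially encoded RNAs, which give core subunits of the respiratory chain and the mitochondrial rRNAs, were the largest group by share. They held 20.3%, 20.2% and 19.99% of thinned UMIs in the low-, mid- and high-UMI groups of KO batch 1, and 20.6%, 20.2% and 20.4% in batch 2. The lowest, median and highest cell held 19.4%, 20.2% and 21.03% in the low-UMI group and 18.8%, 19.96% and 21.3% in the high-UMI group of batch 1. In batch 2 they held 19.5%, 20.6% and 23.4% against 19.4%, 20.1% and 25.8%. The top-minus-bottom difference was −0.238 ± 0.103 percentage points (SD, n = 2 batches), smaller than the spread between cells. In batch 2 it was −0.165 with and −0.389 without 1 high-UMI cell at 25.8%. WT cells gave −0.421 and −0.464 points. The mitochondrial share of cells with one code had a Spearman correlation of 0.476 between the KO batches (75 codes), and of 0.0394 to 0.295 in the other 5 pairs of pools. The mitochondrial difference under the rankings by well code is not given here, and the part of the well code in it was not tested.

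Single mitochondrial transcripts moved little on the log2 scale. MT-CO3, a cytochrome c oxidase subunit and the transcript with the most UMIs, had log2 folds of −0.03 and −0.06 in KO and −0.09 and −0.07 in WT. Its share was 0.131 percentage points lower, from 4.06% to 3.93%. MT-ND4 was lower by 0.0747 points, MT-ND3 by 0.0617 and MT-CYB by 0.0445. The nuclear pseudogene MTATP6P1, a near-identical copy of mitochondrial DNA whose reads cannot be told apart from those of the mitochondrial genes, was lower by 0.0609 points. MT-ND1 had the largest gain, 0.0888 points, which came from 1 high-UMI cell of batch 2 with 3339 UMIs. Without that cell the batch 2 difference was −19.8 UMIs per cell. SRD5A1, a steroid 5-alpha reductase, likewise gained 0.0336 points through 1 batch 2 cell of 776 UMIs.

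Cytosolic ribosomal protein genes held 10.4%, 10.5% and 10.6% of thinned UMIs in the low-, mid- and high-UMI groups of KO batch 1 and 10.5%, 10.6% and 10.6% in batch 2. The difference was 0.105 ± 0.0412 percentage points (SD, n = 2 batches), and WT gave 0.0669 and 0.189. Cells of the low-UMI group ranged from 9.9% to 10.8% in batch 1 and those of the high-UMI group from 10.1% to 10.9%, so the groups overlapped widely. None of the 79 genes was called, where 0.253% of all genes tested were called higher and 0.199% lower. 31 of them (39.2%) had a positive log2 fold in both batches and 14 (17.7%) a negative one, against 1247 and 1357 of all 5531 genes. Their median log2 folds were 0.02 and 0.03, where all genes had −0.01 and 0.00. RPL23 (0.12 and 0.16) and RPL4 (0.25 and 0.08) were among the positive ones. RPS29, the member with the most UMIs, had 0.00 and −0.03.

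**Figure D4:**
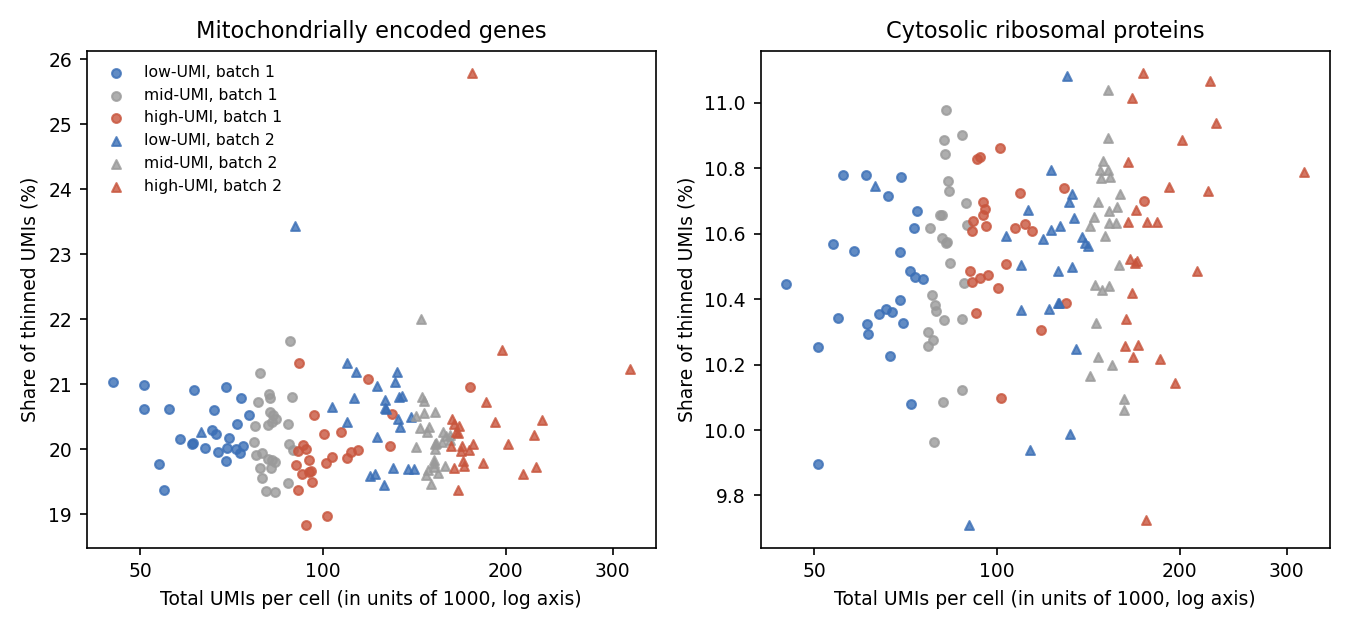
Share of thinned UMIs (%) of mitochondrially encoded genes (left) and cytosolic ribosomal protein genes (right) in each SCC4 KO cell against its total UMIs (log axis). Colours give the group and symbols the batch. The shares stay near 20% and 10.5% over the range of totals, with 1 cell of batch 2 at 25.8% mitochondrial.

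Genes of the other pathways and cell states were not called. Of 27 lists in all, 24 had at least 5 tested genes, and of the 624 list genes tested 0 were called, against the 0.253% and 0.199% of all genes. At those shares only a few calls would fall among 624 genes, so the count is not a result about these pathways. List medians of the log2 fold lay between −0.13 and 0.13 in batch 1 and between −0.23 and 0.07 in batch 2. The 42 tested S-phase genes had medians of −0.03 and 0.07, and the 38 G2 and mitosis genes 0.00 and 0.00, in cells gated for G1. The 8 tested cohesin and CTCF genes had −0.04 and 0.07. The 73 nuclear-encoded respiratory chain genes had −0.01 and −0.02, with COX7A2 at 0.00 and −0.11 and ATP5F1B at −0.01 and 0.08.

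Of the 26 lists with a tested gene, 15 had a summed share of one direction in both batches, and a pair of them was picked for description after their values were seen. Among the others, the ATF4 stress response genes differed by −0.00845 and −0.00978 percentage points and the cholesterol genes by 0.00276 and 0.00285. Small nucleolar RNA host genes, which carry the guide RNAs of rRNA modification in their introns, held 0.426% and 0.405% of thinned UMIs in the low- and high-UMI groups of batch 1 and 0.431% and 0.410% in batch 2. Of the 16 tested, 7 had a negative log2 fold in both batches, against 24.5% of all tested genes, and 1 a positive one, with SNHG1 at −0.07 and −0.04 and SNHG19 at −0.16 and −0.27. SNHG19 was picked from the negative members. The folds of SNHG25 and SNHG6, which with SNHG1 held the most UMIs, are not given here. Cells of the groups overlapped, from 0.351% to 0.531% in the low-UMI and 0.322% to 0.471% in the high-UMI group of batch 1, and the WT differences were −0.00806 and −0.00203 percentage points. The list of chromosome-condensing and chromatin HMG protein genes also holds genes of histone variants. H2AZ1 and H3-3B are such genes and, with HMGA1, were the members with the most UMIs. Together the genes of the list held 0.362% and 0.386% in batch 1 and 0.364% and 0.375% in batch 2. Of the 15 tested, 7 were positive in both batches, against 22.5% of all tested genes, and 2 negative, with HMGN2 at 0.16 and 0.29 and HMGA2 at 0.22 and 0.08. HMGN2 and HMGA2 were picked from the positive members, and the folds of HMGA1, H2AZ1 and H3-3B are not given here.

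**Figure D5:**
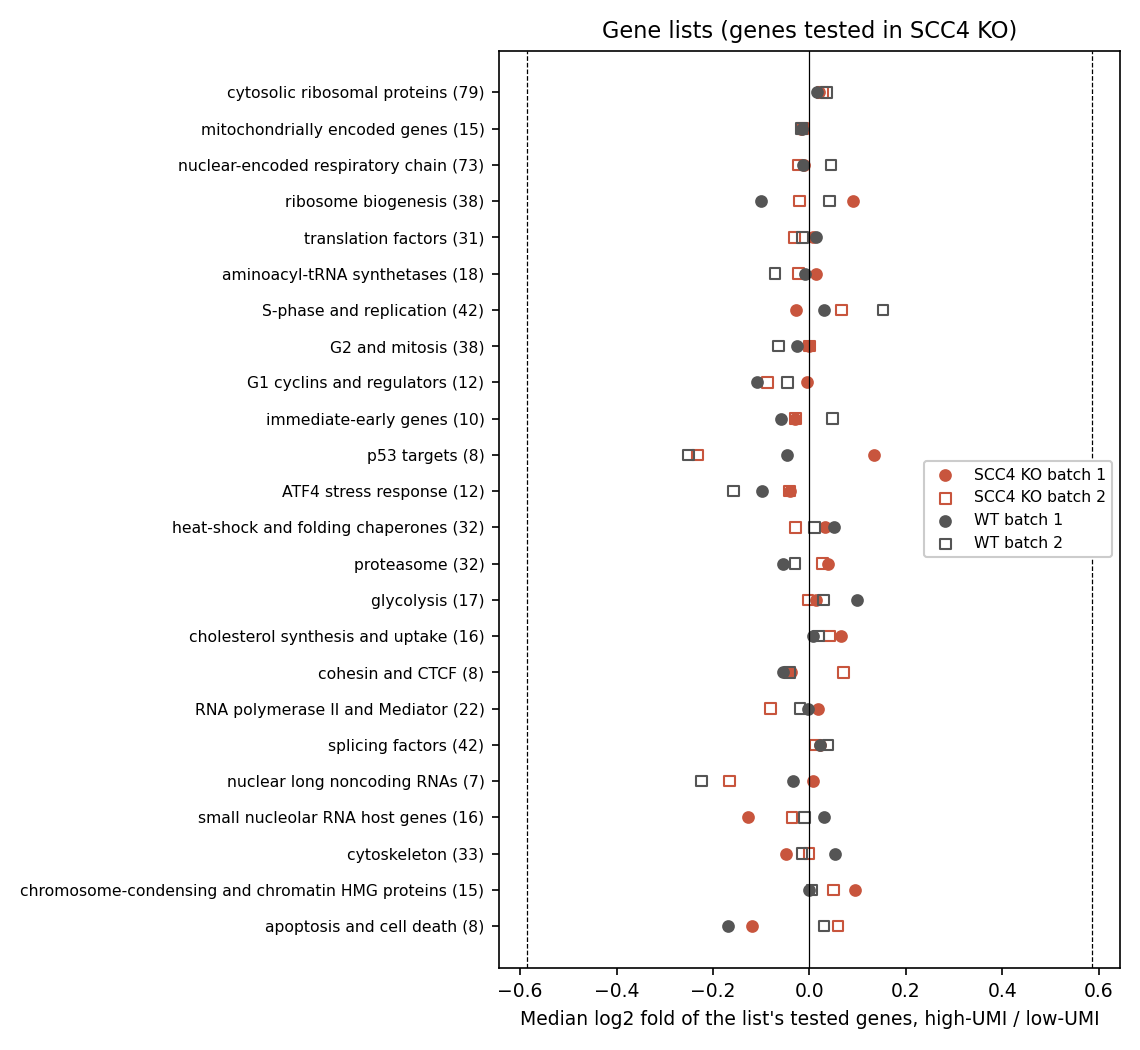
Median log2 fold between the high-UMI and low-UMI groups for each gene list with at least 5 tested genes (number tested in brackets), for the SCC4 KO and WT batches. Dashed lines mark 1.5-fold. All medians lie inside the lines, the KO ones between −0.23 and 0.13.

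Transcript features of the called genes were compared with those of all genes tested. The 14 genes called higher had a median transcript length of 817 nt and 44.2% GC, the 11 called lower 1144 nt and 47.0%, and all genes tested 948 nt and 48.3%. Of the higher genes 10 were protein coding, as were 10 of the lower ones, against 89.6% of all genes tested. Across 5523 genes with a length the Spearman correlation of the KO log2 fold with transcript length was −0.0433 in batch 1 and −0.0222 in batch 2, and with GC content −0.0198 and 0.014. Only 7 of the 14 higher genes had a promoter in the RefSeq table, so a comparison of promoter letters was void for them.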

How the data were processed

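LAST-seq was performed on sorted single cells, 1 cell per well, and the deposited tables hold counts of UMIs per gene and cell. The authors demultiplexed reads with bcl2fastq 2.20 (submitters' processing notes), trimmed them with cutadapt, and aligned them to GRCh38 and counted UMIs on exons with zUMIs. UMIs were collapsed by identity, and wells with few exon reads or low exon mapping were removed. ComBat-seq was applied afterwards, and whether the deposited counts precede it is not stated. Strand use in counting is not given in the sources used here.

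The KO table has 20769 rows. 9 rows of second gene copies were summed with their partner, giving 20760 genes, of which 20695 (99.69%) were matched to symbols. Cells were ranked by total UMIs within each batch (column prefix), cells under 40000 UMIs would have been left out (0 KO, 1 WT), and the rest were thinned without replacement to 44979 UMIs (2 WT cells in all fell below this and were left out, the 1 under 40000 UMIs among them, and 96 WT cells formed the outer groups). The 148 WT cells followed the same rule. Folds used sums with 0.5 UMI added, and genes with a mean of at least 1 thinned UMI in the outer groups were tested. Groups were cut from a measured value of 1 sample, so no test was run. Exact Poisson intervals at 95% cover counting error only. No doublet caller was run. The members and the gene lists were chosen with earlier results of these data known. Named genes were the 10 largest rises and falls among called genes, the 5 largest gains and losses of share, the 3 members with most UMIs of each list, and MAU2. Further called genes, edge genes, list members and genes varying with BCYRN1 were named after their values were seen. The guide came from the study's oligo table and was placed on GRCh38 and its annotation.

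Alternatives were another thinning, none, groups of 1 in 4 or 1 in 2 cells, other totals and scales, pooled batches, other filters and a 2-fold threshold. Added after seeing the data were further draws, leaving out highest cells, 1.2-fold and rankings by well code. Scripts ran in Python 3.11.15 with numpy 2.4.6, scipy 1.17.1, pandas 2.3.3 and matplotlib 3.10.9, and were tested on simulated data.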

Additional observations from a re-analysis of the deposited data

Results flagged for a closer look

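ITGA4 was lower in the high-UMI group of both KO batches (mean log2 fold −0.853) and higher in that of both WT batches (0.151), a KO-minus-WT difference of −1.0 on the log2 scale. NADK2 did the same (−0.699 in KO and 0.805 in WT, a difference of −1.5). Both genes held between 1 and 2 thinned UMIs per cell. ITGA4 was called in 2 of the 10 thinning draws and NADK2 in 1. Without thinning, the KO log2 folds were −0.55 and −0.52 for ITGA4 and −0.64 and −0.23 for NADK2. The summed share of cholesterol synthesis and uptake genes was higher in the high-UMI group in both KO batches and lower in both WT batches, differing by 0.00822 percentage points. That of chromosome-condensing and chromatin HMG protein genes, with the histone variant genes of that list, had the same directions and differed by 0.0221 points. That of RNA polymerase II and Mediator genes had the reverse directions and differed by −0.0081 points. Each was noted because every batch of one genotype moved one way and every batch of the other the opposite way. They came from 27 lists and the 16 called genes tested in WT. How many would show this pattern without a genotype difference was not estimated, and the differences were not tested.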

How the results depend on the processing

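No paired analysis was possible because each genotype is 1 deposited sample and no test was run. The 14 higher and 11 lower genes became 9 and 1 without thinning (8 genes shared), 46 and 45 with the batches pooled, 73 and 49 with a mean of at least 0.5 UMI, 8 and 1 with a mean of at least 2, and 2 and 1 at 2-fold. Groups of 1 in 4 cells gave 22 lower genes and groups of 1 in 2 cells 7. Leaving out either batch gave 143 to 224 higher and 156 to 177 lower genes. Chosen after seeing the data, a draw gave 5 lower genes, 1.2-fold with a mean of at least 10 UMIs gave 3 higher (SENP7, C5orf63 and BCYRN1) and 0 lower of 574, and a ranking by the total divided by that of the same code in other pools gave 7 higher genes and kept 0 of the 25 calls. By that ranking the ribosomal protein difference was 0.0554 percentage points, and the mean log2 fold reversed for DNAJC28 (−0.21), RPS3AP44 (−0.221), VAT1L (2.21), PP12613 (0.692), PTGFRN (0.222) and DCAF6 (0.0504). In single draws it reversed for ENSG00000281087 (−0.188), CXADR (−0.0532 and −0.274) and DCAF6 (0.068). The causes were not tested. Either batch alone gave 0.0757 to 0.134 points for ribosomal proteins and −0.311 to −0.165 for mitochondrial genes. No list median passed 1.5-fold under any alternative run. Counting spike-ins in the total was not run because the tables used here hold no such rows, and the higher minimum total could not be run because no low-UMI cell of batch 1 would remain. Genes of 1 to 2 UMIs per cell are limited by depth, since 25 cells give sums whose counting intervals often overlap.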

Other observations

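KO cells were also ranked by the mean relative total of their well code in the other 3 pools in place of their own total, a choice made after seeing the data. Of the 25 calls, 6 were kept. Between cells of the highest and of the lowest code totals, C5orf63 had log2 folds of 0.74 and 0.65 and was still called, whereas BCYRN1, at 0.37 and 0.65, was under the threshold in batch 1 and no longer called.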
